A study of Mus musculus with 24 samples.

Results

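Bone marrow-derived macrophages (BMDMs), primary phagocytes grown from mouse bone marrow, were compared after 4 h with bacterial lipopolysaccharide (LPS) and after the same time with vehicle, in cells that had received a control siRNA. The comparison uses 6 of the 24 samples of the series: 3 libraries of control siRNA BMDMs given PBS (vehicle) and 3 of control siRNA BMDMs given LPS at 100 ng/ml, chosen by their labels alone. The marrow came from male C57BL6/N mice of 6 to 12 weeks, was differentiated in medium conditioned by L929 cells, and the cells were then kept in macrophage serum-free medium. Both groups carry the control siRNA, so neither is an untransfected macrophage, and how the siRNA was delivered is not given in the sources used here. The other samples, of which 12 serve below as a check, are BMDMs with Ctbp1 or Ctbp2 siRNA under the same 2 treatments and the J774.1 macrophage line, not analysed here.

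LPS is a component of the outer membrane of Gram-negative bacteria. CD14 and MD-2 (Ly96) pass it to Toll-like receptor 4, which signals from the cell surface through MyD88 and from endosomes through TRIF (Ticam1). These routes release NF-kB from its IkB inhibitors, activate MAP kinases and interferon regulatory factors, and lead to secretion of cytokines and interferon, which then act back on the same cells. Genes of the resting state are also switched down as macrophages respond.

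Levels are in TPM, a share of the RNA of a library that is corrected for transcript length. Each library sums to nearly the same total, so a gene can fall in TPM because others rise. Values per library are given in the order replicate 1, 3, 4, group values are means ± SD of 3 libraries, and a log2 fold change is LPS against vehicle on log2(TPM + 1), which understates the change of genes with low values. A gene is said to have risen or fallen when limma's treat test against a 1.5-fold change gave a Benjamini-Hochberg adjusted p under 0.05 over all 7918 tested genes, whose average over the 18 BMDM libraries reached 10 TPM. Nothing in the labels states that the biological replicates are different mice or cultures, so p-values measure only the spread between these samples, which may be technical.

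By this test 718 genes rose (9.07% of those tested) and 1147 fell (14.5%), with 266 rising and 141 falling at least 4-fold. Against 2-fold, 456 were higher and 442 lower (5.76% and 5.58%), and without a fold threshold 6053 genes differed (76.4%). In that plain test 23.3% of tested genes were higher and 53.1% lower. Values of the 3 vehicle and 3 LPS libraries did not overlap at 77.7% of tested genes. The median log2 fold change was 1.54 among risen genes and −1.16 among fallen ones. Together the risen genes made up 3.98, 4.03 and 4.07% of all TPM in the vehicle libraries and 18.9, 19.3 and 15.6% with LPS. The fallen genes went from 9.58, 9.41 and 9.49% to 3.91, 3.88 and 4.56%. The median of all tested genes was −0.21 in TPM, −0.01 after median-of-ratios scaling of the libraries over the tested genes and 0.11 after the same scaling over all detected genes. All 718 risen genes were also called under both scalings. Of the 1147 fallen genes 745 remained called under the first and 603 under both (9.41% and 7.62% of tested genes). The share of calls that were rises went from 38.5% to 54.5% and 63.8%. Without a fold threshold, 36% of tested genes were higher and 35.7% lower after the first scaling. Counts by list below can be set against these shares of all tested genes. Falls named below held under both scalings unless the sentence says otherwise. The genes named follow a rule given with the processing, apart from Abca1, Bst2, Ccl6, Ccl9, Cebpb, Cflar, H2-Ab1, Ifitm3, Junb, Nfkb1, Rela, Slc39a14, Tlr4 and Zfp36, which were chosen after their values were seen.

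1 LPS library stood nearer to vehicle than the others. In LPS replicate 4, 527 of the 718 risen genes had their lowest LPS value and 983 of the 1147 fallen genes had their highest. Leaving it out gave 719 rises and 1307 falls. Macrophage markers (12 of 12 at 10 TPM or more) summed to 17282 to 18042 TPM in vehicle libraries and 16493 to 17416 TPM in LPS libraries. Neutrophil markers summed to 110 to 174 and 127 to 188 TPM, with 5 of 13 averaging 10 TPM or more and 1, Elane, at 0. B cell, T or NK cell, mast cell and red cell markers stayed under 2 TPM in every library. These sums are incomplete, since only 5 of 6 B cell, 3 of 8 T or NK cell, 5 of 7 mast cell and 1 of 7 red cell markers have deposited values. Dendritic cell markers summed to 129–132 TPM in vehicle and 149–152 TPM with LPS, mostly Itgax, with Cd209a at 0, and endothelial markers to 3.55–4.49 and 4.46–5.08 TPM, with Tek at 0. Stromal markers went from 0.0834–0.241 to 4.26–7.74 TPM, most of it Pdgfrb, with Lum at 0. Megakaryocyte markers went from 142–168 to 346–432 TPM, most of it Pf4, which macrophages also express, with Gp1ba and Gp9 at 0. The part of these markers in the results was not tested. In bulk RNA, fewer cells of a type and less RNA per cell cannot be told apart.

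**Figure D1:**
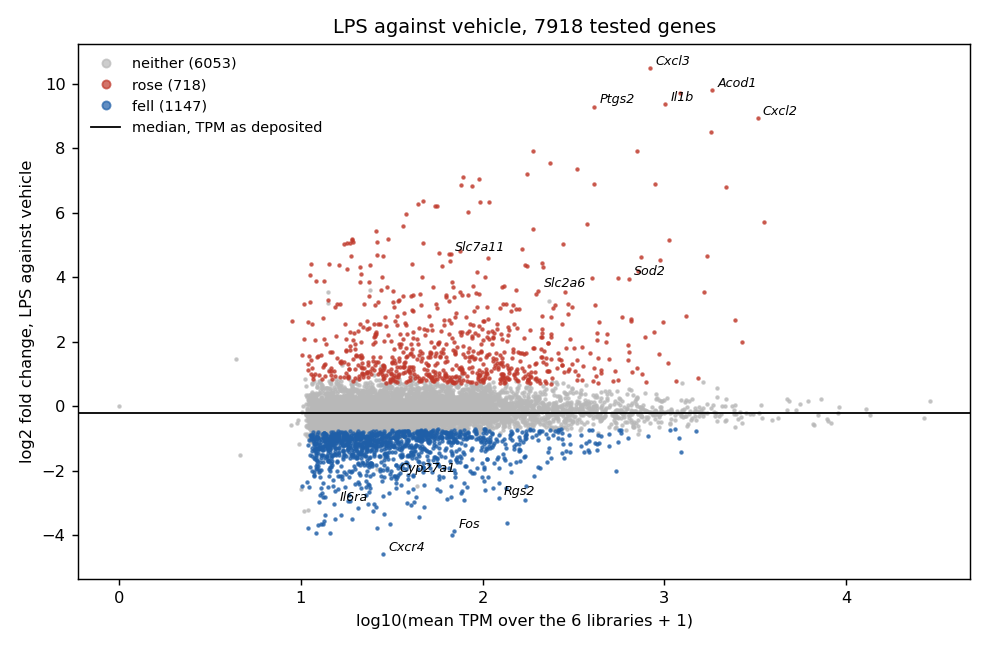
Each point is 1 of the 7918 tested genes, with the log10 of its mean TPM over the 6 libraries plus 1 on the x axis and its log2 fold change with LPS on the y axis. Red points (718) rose, blue points (1147) fell, and the line marks the median of all tested genes at −0.21. Rises reach 10.48 (Cxcl3) and falls reach −4.60 (Cxcr4).

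Upstream sequence is shown for 6 genes that stand for the main groups below: 2 chemokine genes with some of the largest rises, an NF-kB inhibitor, an interferon regulatory factor, and 2 of the genes that fell furthest. Each run is the 250 bases before the RefSeq transcript start (GRCm38.p6, a different build from the mm39 of the expression table), 5′ to 3′ along the gene. Cxcl3 lies at chr5:90785851-90786100 (+), Cxcl10 at chr5:92348890-92349139 (−), Nfkbia at chr12:55492648-55492897 (−), Irf1 at chr11:53769764-53770013 (+), Cxcr4 at chr1:128592300-128592549 (−) and Fos at chr12:85473640-85473889 (+). Capitals mark matches, on either strand, to the kappaB consensus (bound by NF-kB), the interferon-stimulated response element, TGANTCA (AP-1), TGACGTCA (cyclic AMP response), TTGCNNAA (C/EBP), CACGTG (E-box) or GAGGAAG (PU.1). Cxcl10 was added after its matches were seen.
Cxcl3: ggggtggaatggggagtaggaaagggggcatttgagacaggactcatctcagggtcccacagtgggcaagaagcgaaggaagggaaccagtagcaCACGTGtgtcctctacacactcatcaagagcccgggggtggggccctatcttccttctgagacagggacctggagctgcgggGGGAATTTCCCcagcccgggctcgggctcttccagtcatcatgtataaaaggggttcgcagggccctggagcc
Cxcl10: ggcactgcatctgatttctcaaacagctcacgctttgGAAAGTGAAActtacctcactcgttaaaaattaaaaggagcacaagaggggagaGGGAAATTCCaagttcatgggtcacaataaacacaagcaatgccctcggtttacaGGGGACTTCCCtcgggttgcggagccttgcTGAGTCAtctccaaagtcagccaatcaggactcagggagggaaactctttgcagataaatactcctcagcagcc
Nfkbia: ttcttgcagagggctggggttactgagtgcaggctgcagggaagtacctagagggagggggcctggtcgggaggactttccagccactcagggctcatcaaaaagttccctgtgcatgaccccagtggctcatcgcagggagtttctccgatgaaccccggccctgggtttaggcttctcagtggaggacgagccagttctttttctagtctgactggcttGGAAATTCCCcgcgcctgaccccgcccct
Irf1: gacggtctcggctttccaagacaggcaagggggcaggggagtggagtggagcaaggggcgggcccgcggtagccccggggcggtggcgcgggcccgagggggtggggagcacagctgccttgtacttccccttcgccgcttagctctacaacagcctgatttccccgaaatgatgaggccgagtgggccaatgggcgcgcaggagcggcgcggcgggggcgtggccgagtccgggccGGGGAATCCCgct
Cxcr4: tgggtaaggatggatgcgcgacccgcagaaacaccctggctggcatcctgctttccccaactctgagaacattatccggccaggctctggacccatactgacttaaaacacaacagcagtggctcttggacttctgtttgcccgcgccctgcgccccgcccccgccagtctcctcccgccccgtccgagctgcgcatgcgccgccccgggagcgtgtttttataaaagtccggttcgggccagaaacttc
Fos: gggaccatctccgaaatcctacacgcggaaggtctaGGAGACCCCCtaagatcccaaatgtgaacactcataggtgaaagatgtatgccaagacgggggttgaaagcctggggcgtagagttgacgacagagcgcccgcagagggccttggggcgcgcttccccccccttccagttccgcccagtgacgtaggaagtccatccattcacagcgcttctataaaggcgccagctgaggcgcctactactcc

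Counting from the base before the start, Cxcl3 has 2 overlapping kappaB matches (bases 73 to 64 and 72 to 63) and an E-box at 155 to 150. Cxcl10 has a kappaB match at 159 to 150 and 2 overlapping ones at 104 to 95 and 103 to 94, an interferon-stimulated response element at 213 to 204 and an AP-1 match at 74 to 68. Nfkbia has a kappaB match at 29 to 20 and Irf1 at 13 to 4. Cxcr4 has none of the 7 motifs in this window, and Fos has a kappaB match at 214 to 205. A kappaB match was found in 7.25% of all 32851 windows, in 9.24% of the windows of tested genes, in 15.3% of those of risen genes and in 8.89% of those of fallen genes. Among risen genes of at least 4-fold it was 19.6%, among risen NF-kB and IkB genes 6 of 9 windows, and among risen chemokine genes 5 of 10. The interferon-stimulated response element stood in 2.99% of tested, 5.8% of risen and 1.53% of fallen windows, and in 14 of 28 windows of risen interferon response genes. Windows were matched for 6272 of the 7918 tested genes. A match is a run of letters, not a measured binding site.

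Chemokine and cytokine genes were among the largest rises. Cxcl3, a chemokine that attracts neutrophils, was listed at 0, 0 and 0.299 TPM in vehicle and 1965, 2085 and 919 TPM with LPS (log2 fold change 10.48, SE 0.22, adjusted p = 3.2e-15). Its relatives Cxcl1 (1.77 ± 0.585 to 2425 ± 869 TPM) and Cxcl2 (12.2 ± 2.38 to 6489 ± 1537 TPM) rose with it. The groups did not overlap for any of these, and LPS replicate 4 was the lowest of the LPS libraries each time. Il1b, which encodes interleukin-1β, stood at 2.03, 1.52 and 2.16 TPM in vehicle and 2291, 2630 and 1131 TPM with LPS (9.36, SE 0.26, adjusted p = 7.1e-13). Tnf went from 37.5, 36.3 and 37.3 to 4782, 4982 and 3179 TPM (6.80), and Saa3, an acute-phase protein, from 4.83 ± 0.893 to 1407 ± 313 TPM. Il6 was listed at 0 in all 3 vehicle libraries and at 191, 209 and 65.2 TPM with LPS, so no fold is given. Of 17 tested chemokines 15 rose and 0 fell, and of 18 tested cytokines 14 rose and 2 fell. The fallen cytokines were Vegfa, a blood vessel growth factor (22.2 ± 4.56 to 4.73 ± 0.821 TPM), and Pdgfb, whose call was lost under both scalings. Chemokine transcripts made up 0.218, 0.232 and 0.223% of TPM in vehicle and 3.43, 3.59 and 2.31% with LPS. Ccl6 was at 498 ± 43.0 and 488 ± 46.0 TPM, within the spread of its libraries, while Ccl9, in the same family, rose from 1058 ± 47.0 to 4273 ± 512 TPM.

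**Figure D2:**
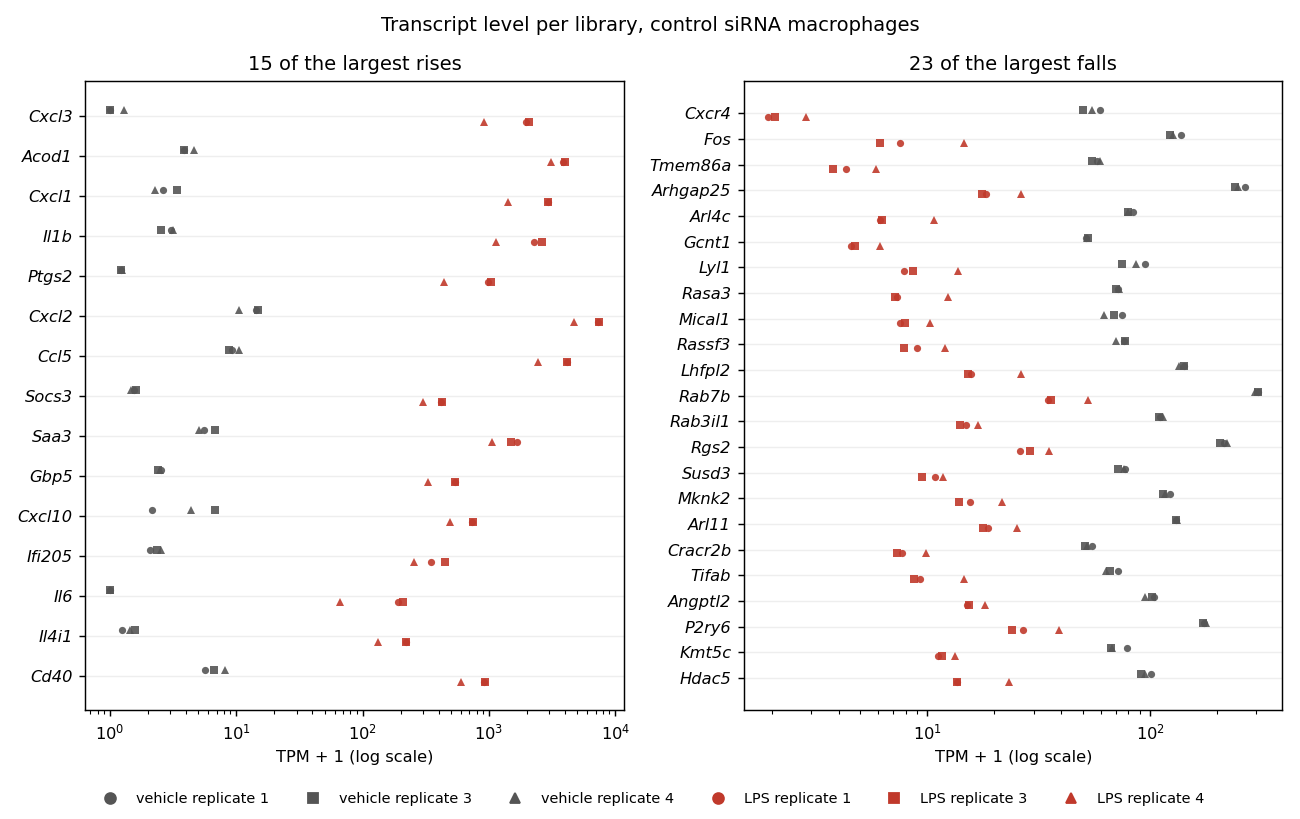
Each row is a gene and each symbol 1 library, with TPM + 1 on a log axis. Grey symbols are vehicle and red symbols LPS, and the shape gives the replicate number. The left panel holds the 15 largest rises and the right panel 23 of the 25 largest falls among called genes that reach a mean of 50 TPM. Vehicle and LPS libraries do not overlap in any row, and the triangle of LPS replicate 4 lies nearer to vehicle than the other LPS libraries in most rows.

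Interferon response genes rose in part. Of 51 tested, 30 rose and 1 fell (Trim25, lost under both scalings), with a median log2 fold change of 1.10. Gbp5, a guanylate-binding protein that acts in inflammasome responses, went from 1.52, 1.39 and 1.5 to 539, 536 and 327 TPM (7.53). Cxcl10, a chemokine for T cells whose window above carries both kappaB and interferon-type matches, went from 1.14, 5.76 and 3.40 to 732, 752 and 493 TPM (7.34). Ifit1, which binds foreign RNA, rose from 17.1 ± 3.03 to 245 ± 60.4 TPM. Among abundant members, Ifitm3 (897 ± 18 and 1013 ± 82.1 TPM) and Bst2 (305 ± 17.7 and 300 ± 36.1 TPM) did not pass the test. Of 24 antigen presentation genes 11 rose and 0 fell. Cd40, a co-stimulatory receptor, stood at 4.65, 5.65 and 7.14 TPM in vehicle and 911, 932 and 601 TPM with LPS (6.89). H2-Ab1, an MHC class II chain, rose from 47.7 ± 2.56 to 104 ± 19.8 TPM, while B2m, the light chain of MHC class I, was at 5428 ± 280 and 5740 ± 264 TPM. Members of the Ifi200, Ifit and H2-Q families are near-identical in part, so reads may be shared between copies.

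By the 1.5-fold test, metabolic genes were called at a few steps rather than across whole pathways. Of 21 tested genes of glycolysis and glucose or lactate transport 4 rose: the transporters Slc2a6, Slc2a1 (GLUT1) and Slc16a3 (which exports lactate) and the phosphofructokinase subunit Pfkl. Slc2a6, a lysosomal sugar transporter, stood at 31.1, 29.4 and 28.9 TPM in vehicle and 409, 409 and 299 TPM with LPS (3.59, SE 0.09, adjusted p = 1.9e-14). Slc2a1 rose from 46.8 ± 1.63 to 131 ± 10.1 TPM, and Slc16a3 from 47.9 ± 2.19 to 92.6 ± 4.88 TPM. The abundant enzymes Gapdh (1844 ± 69.1 and 1768 ± 116 TPM) and Aldoa (1647 ± 33.9 and 1604 ± 94.4 TPM) did not pass the test. Pdk1 and Pfkfb4 fell in TPM, but neither call held with the libraries scaled over all detected genes. Smaller differences were widespread: without a fold threshold (plain test) 7 of the 21 were higher and 11 lower, or 10 and 8 after scaling over the tested genes. The shares of all tested genes were 23.3% and 53.1%, or 36% and 35.7% after that scaling. None of 7 pentose phosphate genes passed the 1.5-fold test, and their log2 fold changes ran from −0.34 to 0.22, with 1 higher and 4 lower by the plain test.

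Genes of mitochondrial respiration had no call by the 1.5-fold test. Of 74 tested nuclear subunits of the respiratory chain and ATP synthase 0 rose and 0 fell, and the extremes were −0.49 and 0.36. By the plain limma test without a fold threshold 2 were higher and 48 lower, against 23.3% and 53.1% of all tested genes. After scaling over the tested genes the list had 22 higher and 9 lower, against 36% and 35.7% of all tested genes. The direction of the list as a whole thus depends on the scaling. The 13 mRNAs encoded by mitochondrial DNA had 0 calls, with 0 higher and 9 lower by the plain test and 2 higher and 1 lower after scaling over the tested genes. The 80 cytosolic ribosomal protein genes had 0 calls too, with 1 higher and 67 lower by the plain test, which became 11 and 12 after scaling over the tested genes. In the list of pyruvate and citric acid cycle enzymes, which also holds cytosolic relatives, 1 of 27 tested genes fell and 0 rose, with 3 higher and 19 lower by the plain test (7 and 9 after scaling over the tested genes). The fallen gene was Idh1, a cytosolic enzyme that makes NADPH from isocitrate, and it went from 173, 168 and 176 to 82.5, 78.7 and 84.5 TPM (−1.06, SE 0.05, adjusted p = 6.1e-07). All 3 LPS values lay below all vehicle values. Acod1, which diverts the cycle intermediate cis-aconitate to itaconate, was at 2.85, 2.84 and 3.63 TPM in vehicle and 3890, 4004 and 3108 TPM with LPS (9.80, SE 0.09, adjusted p = 4e-21).

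Genes of arginine and cystine handling rose too. In the list of itaconate, nitric oxide and arginine metabolism 5 of 9 tested genes rose and 0 fell. Nos2, the inducible nitric oxide synthase, was at 0, 0 and 0.0661 TPM in vehicle and 35.0, 42.2 and 24.8 TPM with LPS. The arginine transporter Slc7a2 (1.67 ± 0.204 to 38.8 ± 11.4 TPM), Gch1, which starts synthesis of the nitric oxide synthase cofactor (15.8 ± 0.577 to 63.3 ± 4.50 TPM), and Ass1, which rebuilds arginine (20.3 ± 0.0678 to 48.4 ± 3.13 TPM), rose too. Slc7a11, the cystine importer that feeds glutathione synthesis, went from 4.01, 3.49 and 3.73 to 141, 138 and 96.8 TPM (4.71). Glul, glutamine synthetase, moved the other way, from 149, 151 and 151 to 58.9, 54.1 and 67.6 TPM (−1.31, adjusted p = 1.3e-07).

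Of 20 tested antioxidant and metal-binding genes 7 rose and 0 fell. Sod2, the mitochondrial superoxide dismutase, went from 79.2, 73.9 and 76.8 to 1301, 1241 and 1050 TPM (3.94). Prdx5 (168 ± 18.2 to 795 ± 78.7 TPM), Txnrd1 (264 ± 3.96 to 987 ± 82.5 TPM) and Nfe2l2, which encodes the NRF2 factor that drives many of these genes (225 ± 5.93 to 637 ± 27.9 TPM), rose as well. Of 15 tested iron and heme genes 3 rose (20%) and 2 fell (13.3%). All tested genes had 9.07% rises and 14.5% falls, so the share of falls is near that of all genes. Lcn2, which binds bacterial iron carriers (5.35 ± 2.31 to 65.8 ± 16.8 TPM), the ferroxidase gene Cp (0.780 ± 0.212 to 33.3 ± 7.88 TPM) and the importer Slc11a2 (51.4 ± 6.09 to 105 ± 7.54 TPM) rose. Slc40a1, ferroportin, the cell's iron exporter, fell from 145, 163 and 149 to 38.9, 43.4 and 50.1 TPM (−1.77, adjusted p = 8e-08), and the ferrireductase Steap3 fell from 56.9 ± 2.41 to 19.3 ± 1.9 TPM.

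Several genes of cholesterol handling fell. Among 16 tested genes of cholesterol efflux and storage 6 fell and 1 rose, against 14.5% and 9.07% of all tested genes, and 5 of the 6 held under both scalings. Cyp27a1, which makes the oxysterol 27-hydroxycholesterol, went from 60.4, 43.1 and 52.7 to 12.3, 9.59 and 10.8 TPM (−2.15, SE 0.14, adjusted p = 2e-08). Nceh1, a cholesterol ester hydrolase, fell from 228 ± 7.97 to 54.7 ± 7.92 TPM, and Soat1, which esterifies cholesterol, from 418 ± 19.3 to 158 ± 11.6 TPM. The efflux transporter gene Abcg1 fell from 140 ± 11.9 to 61.2 ± 3.08 TPM, but Abca1 did not pass the test (67.3 ± 5.12 and 84.7 ± 9.20 TPM). Nr1h3, the oxysterol receptor LXRα, was the member that rose, from 23.2 ± 0.965 to 55.4 ± 8.05 TPM. In fatty acid metabolism Acsl1, which activates long-chain fatty acids, rose from 23.8, 26.2 and 24.0 to 243, 264 and 195 TPM (3.18), and Plin2, the main lipid droplet coat protein, fell from 1802, 1872 and 1699 to 596, 630 and 788 TPM (−1.42).

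Of 13 tested eicosanoid enzymes 2 rose (15.4%) and 5 fell (38.5%). Of 23 tested sphingolipid enzymes 3 rose (13%) and 5 fell (21.7%). All tested genes had 9.07% rises and 14.5% falls. In each list 3 of the falls held under both scalings. Ptgs2, cyclooxygenase-2, was at 0.233, 0.219 and 0.243 TPM in vehicle and 981, 1032 and 441 TPM with LPS (9.28, SE 0.25, adjusted p = 1.1e-13). Ptges, which makes prostaglandin E2 from its product, rose from 3.06 ± 0.522 to 110 ± 24.3 TPM. Hpgds, which makes prostaglandin D2, fell from 245 ± 4.65 to 76.0 ± 12.3 TPM, and Hpgd, which inactivates prostaglandins, from 17.4, 17.5 and 31.1 to 4.03, 4.59 and 6.73 TPM (−1.88, adjusted p = 0.0044). The ceramide synthase gene Cers6 rose from 34.0 ± 0.646 to 203 ± 24.0 TPM, and Cerk, which phosphorylates ceramide, fell from 132 ± 5.11 to 24.5 ± 3.78 TPM.

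**Figure D3:**
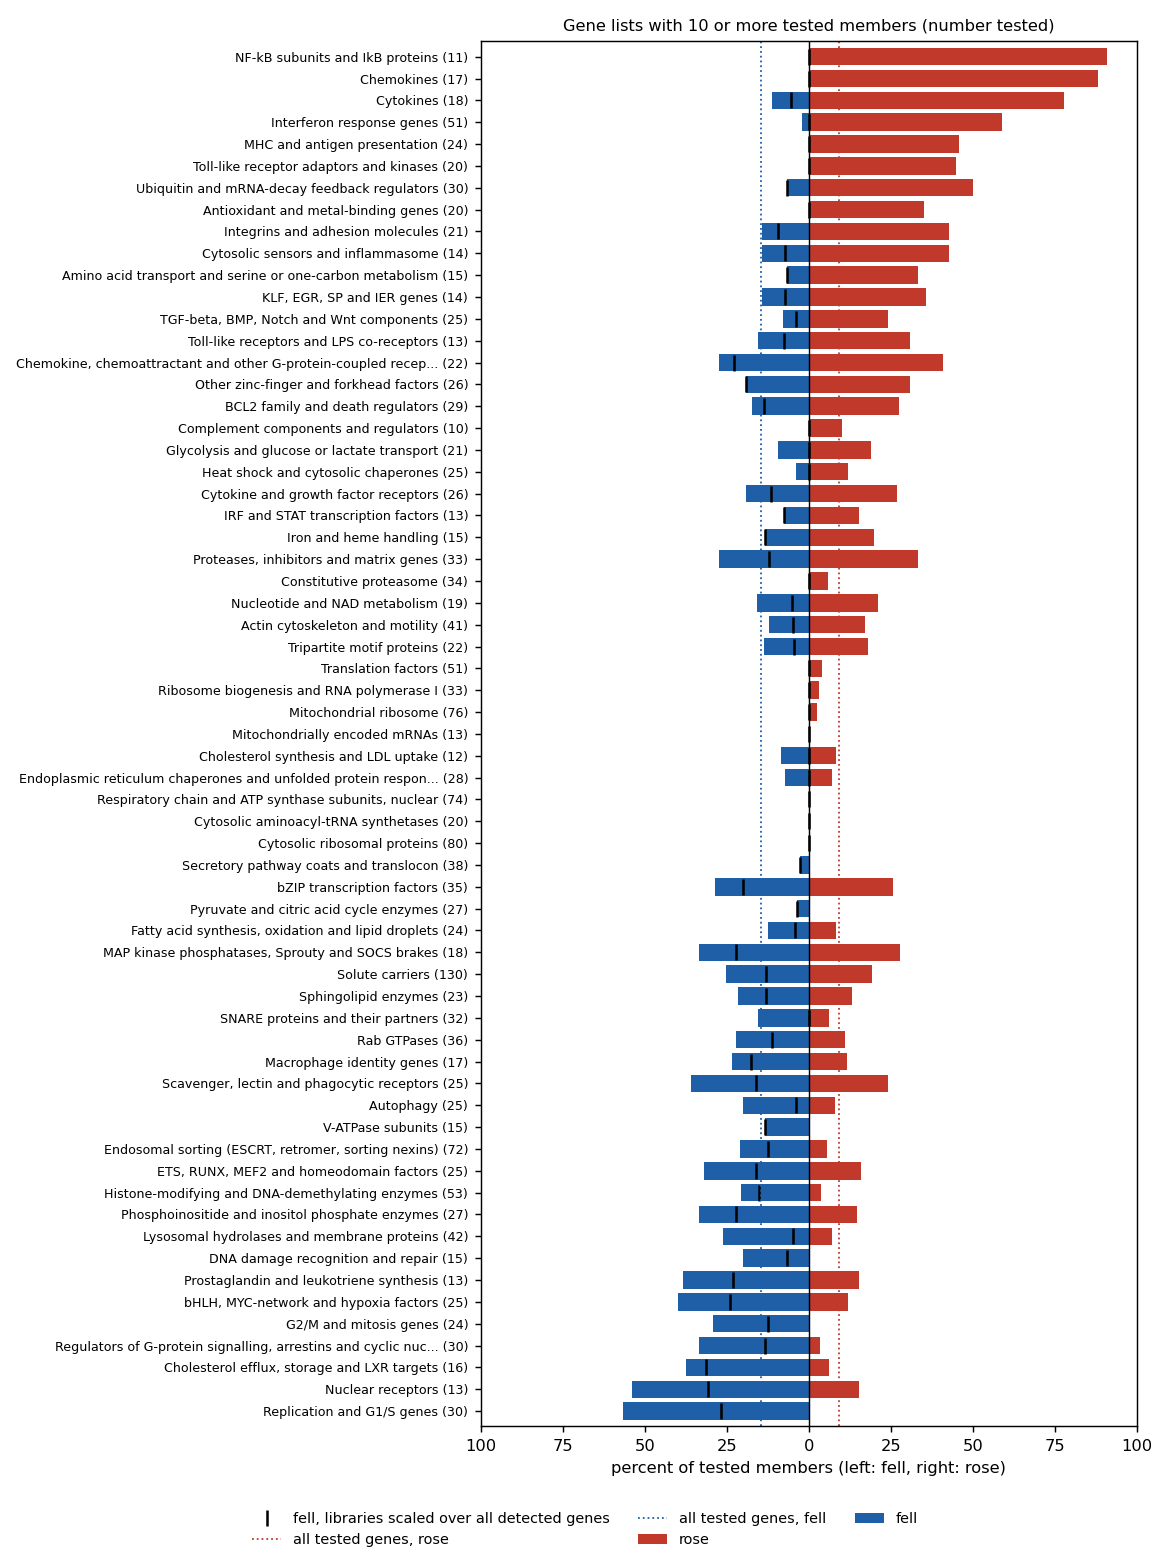
Bars give, for the gene lists shown, with 10 or more tested members each, the percent of tested members that rose (red, right) or fell (blue, left), with the number tested in brackets. Black ticks give the percent that fell with libraries scaled over all detected genes. Dotted lines mark all tested genes in TPM as deposited (9.07% rose, 14.5% fell). The ticks compare with 7.62% of all tested genes that fell under that scaling, which is not drawn. NF-kB and chemokine genes stand at the top, and replication genes (17 of 30 fell) at the bottom.

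Of 13 tested Toll-like receptors and LPS co-receptors 4 rose and 2 fell, and the share of falls is near the 14.5% of all tested genes. Cd14, the LPS co-receptor, went from 270, 303 and 255 to 1710, 1825 and 1498 TPM (2.60), and Tlr2, the receptor for bacterial lipoproteins, from 27.6, 28.4 and 31.1 to 275, 253 and 264 TPM (3.14). Tlr4 itself was at 46.7, 51.2 and 45.5 TPM in vehicle and 28.4, 32.5 and 23.2 TPM with LPS, a difference that did not pass the 1.5-fold test (−0.76, adjusted p = 0.16) though the groups did not overlap. The falls were Cd180, lost under both scalings, and Tlr13, a sensor of bacterial ribosomal RNA, from 229 ± 3.93 to 89.3 ± 9.10 TPM. Of 20 tested adaptors and kinases downstream 9 rose and 0 fell, among them Ripk2 (11.2 ± 0.569 to 117 ± 16.5 TPM), which relays NOD signals, and Irak3 (14.1 ± 0.741 to 79.2 ± 4.80 TPM), an inhibitory kinase of the pathway. Nlrp3, the inflammasome sensor, went from 17.7, 13.9 and 14.4 to 541, 574 and 485 TPM (5.04), and Nlrp1b, another inflammasome sensor, from 27.0, 22.9 and 26.9 to 3.15, 2.72 and 4.00 TPM (−2.64).

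Surface receptors for uptake followed. Of 25 tested scavenger, lectin and phagocytic receptors 6 rose and 9 fell, 4 of the 9 under both scalings. Clec4e (Mincle, a receptor for mycobacterial glycolipid) went from 13.9, 16.1 and 11.3 to 1902, 2039 and 1338 TPM (6.88), and Marco, a scavenger receptor for bacteria, from 7.31 ± 1.66 to 370 ± 36.0 TPM. Mertk, the kinase receptor for uptake of dying cells, fell from 27.6, 25 and 27.4 to 5.90, 4.25 and 4.53 TPM (−2.24, SE 0.18, adjusted p = 3.2e-07), Stab1 from 358 ± 37.8 to 117 ± 15.5 TPM and Lrp1 from 589 ± 29.4 to 261 ± 44.4 TPM. Among 6 Fc receptor genes the inhibitory Fcgr2b rose from 31.5, 30.5 and 29.8 to 383, 443 and 255 TPM (3.48). The activating Fcgr1 (91.0 ± 8.87 to 30.5 ± 6.19 TPM) and Fcgr3 (755 ± 11.4 to 352 ± 3.25 TPM) fell, and their shared signalling chain Fcer1g was at 2011 ± 43.5 and 2358 ± 20.5 TPM, without a call.

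Among G-protein-coupled receptors, 22 of which were tested, 9 rose and 6 fell. Gpr84, a receptor for medium-chain fatty acids, went from 1.52, 1.78 and 1.58 to 204, 211 and 223 TPM (6.35, SE 0.08), and the formyl peptide receptor gene Fpr2 from 1.56 ± 0.513 to 163 ± 17.3 TPM. The adenosine receptor Adora2a (0.191 ± 0.0436 to 73.4 ± 12.9 TPM) and the nicotinic acid receptor Hcar2 (0.966 ± 0.269 to 49.5 ± 7.36 TPM) rose too. Cxcr4, the receptor for the chemokine CXCL12, had the largest fall of any gene that reached 50 TPM, from 58.5, 48.8 and 53.8 to 0.935, 1.07 and 1.87 TPM (−4.60, SE 0.15, adjusted p = 2.3e-13). The sphingosine 1-phosphate receptor S1pr1 fell from 37.2, 40.3 and 39.2 to 4.78, 4.76 and 5.24 TPM (−2.75), the lysophosphatidic acid receptor Lpar6 from 23.5 ± 1.86 to 0.939 ± 0.217 TPM, and the UDP receptor P2ry6 from 174 ± 3.61 to 28.9 ± 7.92 TPM. Among regulators of G-protein signalling and cyclic nucleotides 10 of 30 tested genes fell and 1 rose, with 4 falls held under both scalings. Rgs2, which switches off Gq, fell from 215, 206 and 221 to 25, 27.8 and 34.3 TPM (−2.85), and the cyclic AMP phosphodiesterase Pde4b rose from 3.90 ± 0.440 to 128 ± 13.3 TPM.

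Of 26 tested receptors for cytokines and growth factors 7 rose and 5 fell, 3 of the falls under both scalings. Il6ra, the binding chain of the interleukin-6 receptor, fell from 26.2, 25.7 and 26.6 to 2.31, 1.53 and 3.33 TPM (−3.04, SE 0.15, adjusted p = 2e-10), and its signalling partner Il6st (gp130) from 72.7, 75.3 and 71.4 to 16.4, 18 and 23.6 TPM (−1.88). Both fell in the libraries in which Il6 appeared. Fas (5.98 ± 0.668 to 74.8 ± 3.61 TPM) and Tnfrsf1b, a TNF receptor (289 ± 9.70 to 1279 ± 41.2 TPM), rose, and Csf1r, the receptor for the growth factor that keeps macrophages alive, did not pass the test (939 ± 41.6 and 1133 ± 79.7 TPM). In adhesion, 9 of 21 tested genes rose and 3 fell, 2 of the falls under both scalings. Rises were 42.9% of the list against 9.07% of all tested genes, and falls 14.3%, near the 14.5% of all. Icam1, a ligand for leukocyte integrins, went from 55.3, 57.7 and 58.1 to 2239, 2257 and 1702 TPM (5.14). Itgal, the αL chain of the integrin that binds it, rose from 4.65 ± 0.595 to 113 ± 9.03 TPM, and the laminin receptor chain Itga6 fell from 58.4 ± 1.39 to 19.7 ± 1.80 TPM.

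Genes of vesicle and endosome traffic were next. Of 72 tested genes of endosomal sorting 4 rose and 15 fell, 9 of the 15 under both scalings, and the steepest were sorting nexins. Snx30 fell from 28.7, 29.3 and 29.8 to 1.66, 1.29 and 3.18 TPM (−3.36, SE 0.18, adjusted p = 4.1e-10), Snx24 from 43.1, 40.3 and 38.8 to 4.09, 2.85 and 5.64 TPM (−3.04), and Snx8 from 159 ± 2.86 to 42.9 ± 5.46 TPM. Snx10 (74.7 ± 2.15 to 215 ± 13.4 TPM) and Snx20 (70.9 ± 1.77 to 184 ± 5.12 TPM) rose, so the family did not move as one. Of 36 tested Rab GTPases, switches of vesicle transport, 4 rose and 8 fell, 4 of the falls under both scalings. Rises were 11.1% of the list, near the 9.07% of all tested genes, and falls 22.2% against 14.5%. Rab7b, a late endosomal Rab, fell from 304, 304 and 294 to 33.9, 35.0 and 51.7 TPM (−2.90), while the phagosomal Rab20 rose from 10.4 ± 0.686 to 45.4 ± 0.341 TPM and Rab32 from 37.4 ± 4.05 to 118 ± 11 TPM. Stx11, a SNARE of secretion, rose from 6.36 ± 1.31 to 42.3 ± 4.65 TPM.

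Of 42 tested lysosomal genes 3 rose and 11 fell, with a median log2 fold change of −0.58 against −0.21 for all tested genes. The list also holds the transcription factor genes Mitf, counted among the rises, and Tfeb, counted among the falls. Under both scalings 2 of the falls held, Npc1 and Tfeb, a share of the 42 below the 7.62% of all tested genes. Transcripts of the whole list summed to 57703 ± 424 TPM in vehicle and 41624 ± 2821 TPM with LPS. Tfeb, a master factor of lysosome genes, fell from 66.4, 61.5 and 63.7 to 19.3, 18.9 and 29.8 TPM (−1.48, adjusted p = 5.4e-06). By the plain test 38 of the 42 were lower in TPM and 35 after scaling over the tested genes. The shares of all tested genes were 53.1% and 35.7%. Cathepsin C (Ctsc), which activates serine proteases, rose from 82.5 ± 8.49 to 255 ± 27.7 TPM. In autophagy the cargo receptor Sqstm1 (p62) rose from 675, 659 and 659 to 4238, 4506 and 4018 TPM (2.68, SE 0.04). Of the proton pump subunits Atp6v0d2 (419 ± 19.3 to 187 ± 18.2 TPM) and Atp6v0a1 (511 ± 24.0 to 232 ± 28.9 TPM) fell and the other 13 tested had no call.

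Of 41 tested genes of the actin cytoskeleton and motility 7 rose and 5 fell, 2 of the falls under both scalings, against 9.07% and 14.5% of all tested genes, so the share of falls is near that of all genes. Arhgap25, a GTPase activator for Rac in phagocytes, fell from 267, 239 and 248 to 17.3, 16.7 and 25.3 TPM (−3.63, SE 0.11, adjusted p = 1.3e-13), and Arhgef3 rose from 11 ± 1.08 to 98.8 ± 15.9 TPM. Fscn1, fascin, which bundles actin in protrusions, was at 0.409, 0.0440 and 0 TPM in vehicle and 59.8, 53.8 and 35.0 TPM with LPS. Marcksl1 (56.8 ± 4.72 to 1430 ± 60.7 TPM) and Vasp (121 ± 3.95 to 748 ± 17.5 TPM) rose as well. Inpp5d, the phosphatase SHIP1 that opposes PI3-kinase, fell from 115, 106 and 123 to 19.2, 21.7 and 34.5 TPM (−2.18), and the PI3-kinase regulatory subunit Pik3r5 rose from 127 ± 1.58 to 447 ± 5.85 TPM.

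Transcription factors changed in both directions within most families, with NF-kB the exception. Of 11 NF-kB and IkB genes 10 rose and 0 fell, and the eleventh, Nfkbid, had no call. Nfkbia, the main IkB inhibitor, went from 65.7, 65.2 and 66.4 to 1105, 1102 and 922 TPM (3.96, SE 0.05, adjusted p = 6.6e-18), and Nfkbiz, a nuclear IkB, from 10.5, 9.44 and 9.55 to 338, 342 and 279 TPM (4.88). Of the subunit genes, Nfkb2 rose from 50.2 ± 0.958 to 448 ± 51.1 TPM, Rel from 14.4 ± 0.686 to 87.2 ± 6.22 TPM, Nfkb1 from 66.5 ± 0.575 to 358 ± 32.7 TPM and Rela from 78.9 ± 1.12 to 193 ± 7.36 TPM. Of 13 tested IRF and STAT genes 2 rose (15.4%) and 1 fell (7.69%), against 9.07% and 14.5% of all tested genes. Irf1 rose from 58.6, 55.7 and 59.2 to 567, 546 and 481 TPM (3.17), and Irf8, a factor of the monocyte lineage, fell from 139, 127 and 138 to 32.5, 30.7 and 34.9 TPM (−2.01, SE 0.06, adjusted p = 2.7e-12).

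The bZIP family, which includes AP-1, had 9 rises and 10 falls of 35 tested, 7 of the falls under both scalings. The small Maf gene Maff rose from 1.14 ± 0.262 to 53.4 ± 8.61 TPM. Fos fell from 137, 122 and 125 to 6.53, 5.15 and 13.6 TPM (−3.88) and Jun from 79.4, 81.4 and 79.6 to 17.6, 19.6 and 25.8 TPM (−1.90). Their AP-1 relatives Junb (146, 139 and 144 to 417, 406 and 356 TPM, 1.45), Jund (251 ± 8.09 to 569 ± 18.2 TPM) and Batf (8.29 ± 1.77 to 81.3 ± 12.8 TPM) rose. Cebpa fell from 107 ± 8.62 to 35.3 ± 3.22 TPM as Cebpb rose from 110 ± 5.30 to 280 ± 17.6 TPM and Cebpd from 3.46 ± 0.0722 to 39.2 ± 2.98 TPM, so the levels of Cebpa and Cebpb, equal within their spread in vehicle, separated with LPS.

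**Figure D4:**
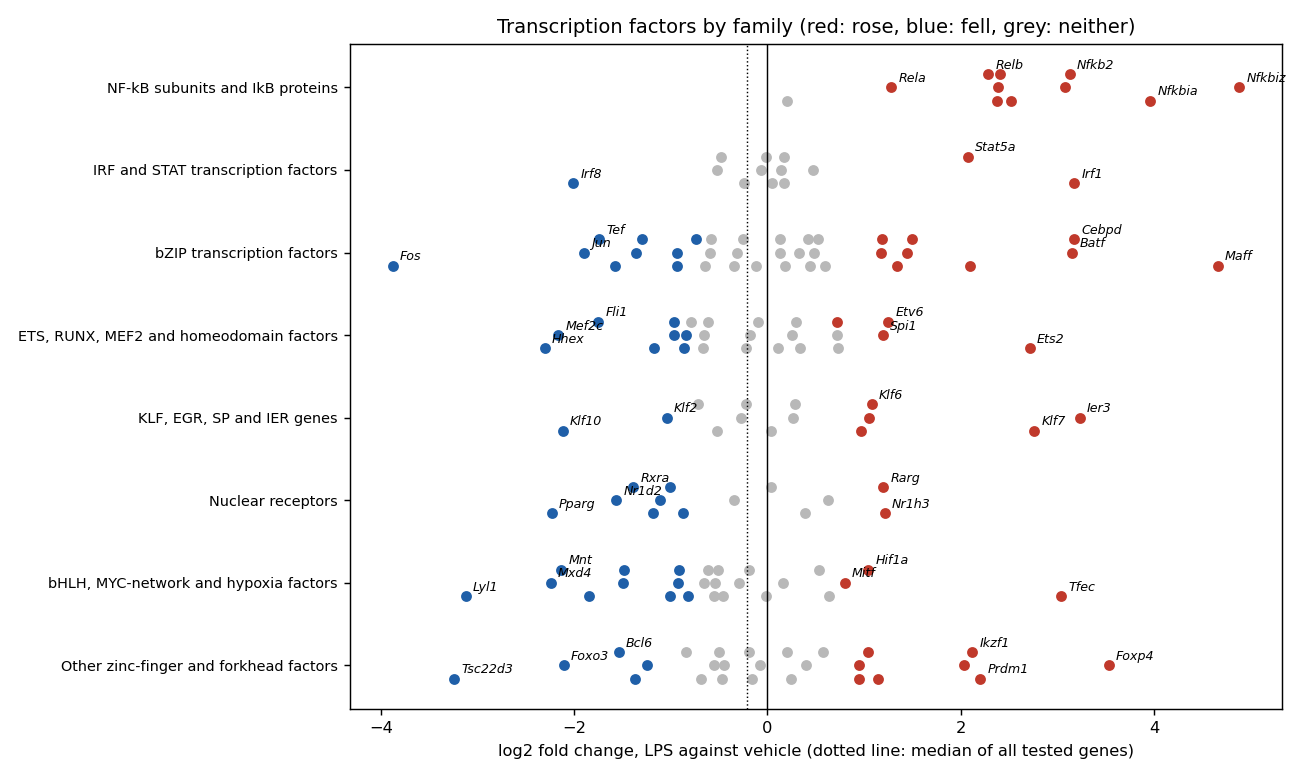
Each point is a tested transcription factor gene, placed by its log2 fold change with LPS and grouped by family. Red points rose, blue points fell, grey points did neither, and the dotted line is the median of all tested genes (−0.21). NF-kB and IkB genes lie at or above 0.20, and every other family has called genes on both sides, from Fos (−3.88) to Maff (4.66) among the bZIP factors shown.

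Other families were mixed too. Spi1 (PU.1), the lineage factor of macrophages, rose from 434, 426 and 421 to 971, 969 and 990 TPM (1.19), and Ets2 from 27.3 ± 3.57 to 184 ± 7.98 TPM, whereas Mef2c (43.9 ± 5.60 to 9.09 ± 2.03 TPM) and Hhex (45.2 ± 3.49 to 8.42 ± 1.43 TPM) fell. Of 13 nuclear receptors 7 fell and 2 rose, 4 of the falls under both scalings. Pparg, a lipid-sensing receptor, fell from 52.2, 50.7 and 48.3 to 9.51, 8.63 and 11.9 TPM (−2.23), and its partner Rxra from 30.1 ± 0.635 to 10.9 ± 1.62 TPM. Among basic helix-loop-helix factors Tfec rose from 26.0 ± 1.64 to 223 ± 40.7 TPM and Hif1a, the hypoxia factor, from 36.5 ± 0.964 to 76.5 ± 3.98 TPM. Lyl1 fell from 93.8, 73.8 and 85.5 to 6.89, 7.62 and 12.7 TPM (−3.12), and the MYC antagonists Mxd4 (63.0 ± 3.86 to 12.6 ± 2.17 TPM), Mnt (36.3 ± 1.10 to 7.64 ± 1.95 TPM) and Mxi1 (30.5 ± 0.814 to 10.2 ± 0.411 TPM) fell together. Prdm1 (BLIMP1), a repressor, rose from 9.82 ± 0.275 to 48.8 ± 2.61 TPM and Foxp4 from 10.9 ± 0.908 to 137 ± 15.8 TPM, while the repressor Bcl6 fell from 57.3 ± 1.62 to 19.9 ± 7.57 TPM. Tsc22d3 (GILZ), a glucocorticoid-induced brake on inflammation, fell from 41.7, 42.4 and 47.5 to 3.19, 2.71 and 5.86 TPM (−3.24), and the forkhead gene Foxo3 from 39.6 ± 1.70 to 8.47 ± 1.38 TPM. Of 6 tested clock genes 5 fell, among them Nr1d2 (29.4 ± 0.496 to 9.29 ± 0.934 TPM) and Tef (36.0 ± 1.41 to 10.1 ± 0.989 TPM), 4 of them under both scalings.

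Among 53 tested chromatin enzymes 11 fell (20.8%) and 2 rose (3.77%), against 14.5% and 9.07% of all tested genes. Under both scalings 8 of the falls held. The class IIa histone deacetylase gene Hdac5 fell from 100, 90.2 and 93.7 to 12.6, 12.6 and 22.2 TPM (−2.56, SE 0.14, adjusted p = 1.2e-09). The DNA methyltransferase genes Dnmt1 (55.2 ± 1.45 to 12.8 ± 3.92 TPM) and Dnmt3a (354, 333 and 344 to 94.8, 101 and 117 TPM, −1.72) fell together. The DNA-demethylating dioxygenases differed, with Tet2 up from 17.3 ± 1.35 to 50.3 ± 2.10 TPM and Tet3 down from 30.8 ± 0.959 to 8.56 ± 1.43 TPM. Kdm4a, a histone demethylase, rose from 30.3 ± 1.04 to 112 ± 18.4 TPM. The co-repressor genes that the study targets in its other groups were not called by the 1.5-fold test: Ctbp1 was at 143, 141 and 130 TPM in vehicle and 117, 120 and 131 TPM with LPS (−0.17), and Ctbp2 at 52.0, 51.6 and 54.2 and 37.4, 36.9 and 40.3 TPM (−0.45, with no overlap). Both were lower by limma's plain test (adjusted p = 0.025 and 0.00017).

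Of 18 tested MAP kinase phosphatase, Sprouty and SOCS genes 5 rose and 6 fell, 4 of the falls under both scalings. Socs3, which blocks cytokine receptor signalling, went from 0.544, 0.621 and 0.460 to 414, 423 and 298 TPM (7.93, SE 0.10, adjusted p = 1.3e-18), and Dusp2, a MAP kinase phosphatase, from 1.73 ± 0.181 to 90.3 ± 15.0 TPM. The ERK phosphatase gene Dusp6 fell from 35.1, 37.0 and 35.4 to 2.39, 2.50 and 5.02 TPM (−3.15), and Dusp7 from 51.0 ± 1.36 to 13.9 ± 1.41 TPM. Of 30 tested ubiquitin and mRNA-decay regulators 15 rose and 2 fell. Tnfaip3 (A20), which edits ubiquitin chains on the NF-kB pathway, rose from 17.6 ± 1.81 to 406 ± 67.9 TPM. Within the family of AU-rich mRNA binding proteins Zfp36 rose from 82.4, 84.0 and 85.0 to 307, 306 and 282 TPM (1.82), and both of the falls were its relatives: Zfp36l2 from 225, 233 and 228 to 35.9, 33.5 and 49.5 TPM (−2.52) and Zfp36l1 from 55.1 ± 4.04 to 10.0 ± 3.34 TPM. The same pattern of relatives in opposite directions appeared for Gadd45b (51.9 ± 1.01 to 369 ± 41.2 TPM) and Gadd45g (26.7 ± 1.64 to 5.27 ± 1.18 TPM), and for Skil (12.3 ± 1.34 to 62.1 ± 3.25 TPM) and Ski (54.9 ± 0.865 to 12.0 ± 1.72 TPM), co-repressors of SMAD factors.

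Of 29 tested death regulators 8 rose and 5 fell, 4 of the falls under both scalings. Rises were 27.6% of the list against 9.07% of all tested genes. Falls were 17.2%, near the 14.5% of all tested genes. The anti-apoptotic copies Bcl2a1a, Bcl2a1b (77.0 ± 6.72 to 1805 ± 208 TPM) and Bcl2a1d rose, with the caution that the copies are near-identical, and Cflar rose from 59.9 ± 2.03 to 412 ± 38.3 TPM. The initiator caspase gene Casp9 (32.7 ± 0.827 to 9.23 ± 2.38 TPM) and the pro-apoptotic Bbc3 (28.9 ± 1.19 to 9.70 ± 2.16 TPM) fell. Of 30 tested replication and G1/S genes 17 fell and 0 rose, 8 of the falls under both scalings. Ccnd1, cyclin D1, fell from 142, 178 and 159 to 32.4, 38.3 and 54.3 TPM (−1.94, adjusted p = 2.4e-06), and the licensing factor Cdt1 from 38.2, 41.8 and 36.4 to 5.51, 5.62 and 8.07 TPM (−2.44). Of 24 G2/M and mitosis genes 7 fell and 0 rose, 3 of the falls under both scalings. Cdkn1a (p21), which halts the cycle, rose from 300, 338 and 330 to 2535, 2499 and 1849 TPM (2.81).

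Several of the largest falls lay outside these families. Tmem86a, which breaks down lysoplasmalogens, fell from 56.8, 53.7 and 58.7 to 3.30, 2.76 and 4.91 TPM (−3.65), and the small GTPase gene Arl4c from 80.3 ± 2.35 to 6.73 ± 2.62 TPM. Gcnt1, which branches O-linked glycans on surface proteins, fell from 50.4, 51.5 and 50.9 to 3.56, 3.72 and 5.16 TPM (−3.35). The Ras GTPase activator Rasa3 (70.6 ± 1.12 to 7.97 ± 3.00 TPM) and the kinase Mknk2, which phosphorylates the cap-binding factor eIF4E (117 ± 4.4 to 16.0 ± 4.05 TPM) fell too. In the nucleotide and NAD list 4 of 19 tested genes rose and 3 fell, 1 of the falls under both scalings. Rises were 21.1% of the list against 9.07% of all tested genes, and falls 15.8%, near the 14.5% of all. Nampt, the rate-limiting enzyme of NAD salvage, rose from 65.7 ± 1.45 to 189 ± 22.5 TPM and the purine salvage enzyme Pnp from 113 ± 3.40 to 486 ± 42.0 TPM.

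Of 33 tested proteases, inhibitors and matrix genes 11 rose (33.3%) and 9 fell (27.3%), against 9.07% and 14.5% of all tested genes. Under both scalings 4 of the falls held. Mmp14, a membrane-bound matrix protease, went from 0.447, 0.291 and 0.725 to 114, 104 and 105 TPM (6.20), and Plau, urokinase, from 302, 298 and 343 to 75.0, 71.3 and 113 TPM (−1.88). C3, the central complement component, rose from 17.4 ± 2.06 to 236 ± 11.6 TPM. Of 130 tested solute carriers 25 rose (19.2%) and 33 fell (25.4%), 17 of the falls under both scalings. The zinc importer Slc39a14 rose from 12.9 ± 1.29 to 152 ± 26.6 TPM, and the anion transporter Slc26a11 fell from 23.7, 24.4 and 23.0 to 1.16, 0.933 and 1.15 TPM (−3.57). Among 51 translation factors 2 rose (Eif6 and Eif4g2) and 0 fell, with 19 higher and 18 lower by the plain test. After scaling over the tested genes the plain counts were 29 and 6, and the rises were 5, or 10 with scaling over all detected genes. Hspa1b and Hspa1a, near-identical heat shock genes, rose from 4.01 ± 0.366 to 58.3 ± 6.01 and from 2.99 ± 0.433 to 15.9 ± 0.385 TPM. Of 33 ribosome biogenesis genes 1 rose, Rrs1 (21.7 ± 0.240 to 107 ± 9.87 TPM), and of 20 cytosolic aminoacyl-tRNA synthetases none was called in either direction by the 1.5-fold test, though 11 were higher and 4 lower by the plain test. Of 34 subunits of the constitutive proteasome 2 rose by the 1.5-fold test and 26 were higher by the plain one. The shares of all tested genes were 9.07% and 23.3%. The proteasome activator gene Psme2 rose from 191 ± 12.7 to 765 ± 43.9 TPM, while its near-identical copy Psme2b fell (−1.55). Reads may be shared between these copies, so their opposite calls need caution.

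The same contrast was measured in cells with other siRNAs, in libraries that share no sample with the control siRNA ones. Ctbp1 stood at 48.1 to 59.4 TPM in the 6 Ctbp1 siRNA libraries against 117 to 143 TPM in control siRNA ones, and Ctbp2 at 10.4 to 20.4 TPM in Ctbp2 siRNA libraries against 36.9 to 54.2 TPM. Of the 718 risen genes 678 were also called higher with LPS in Ctbp1 siRNA cells, which had 705 rises (8.9% of tested genes), and 667 in Ctbp2 siRNA cells, which had 716 (9.04%). Of the 1147 fallen genes 970 were called lower in Ctbp1 siRNA cells, of 1060 (13.4%), and 1062 in Ctbp2 siRNA cells, of 1266 (16%). The estimate had the same sign for all 1147 fallen genes in both, for all 718 risen genes with Ctbp1 siRNA and for 717 of them with Ctbp2 siRNA, the exception being Ifit3. Tested directly, the LPS effect differed from that in control siRNA cells at 1 gene for Ctbp1 siRNA and at 8 for Ctbp2 siRNA (0.0126% and 0.101% of tested genes). These counts moved with the libraries used: they were 9 and 38 without control siRNA LPS replicate 4 and 0 and 1 without vehicle replicate 1. Both scalings gave 0 and 2, and a replicate block gave 0 and 14. Of those 9 genes, 4 had risen in control siRNA cells: Ifit2, Tgtp2, Ifit3 and Xaf1. In the authors' deposited table every one of the 718 risen genes was higher and every one of the 1147 fallen genes lower with LPS at an adjusted p under 0.05. That comparison is of the same control siRNA groups and has 4432 genes higher and 4176 lower at this threshold. It is therefore not an independent check either.

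**Figure D5:**
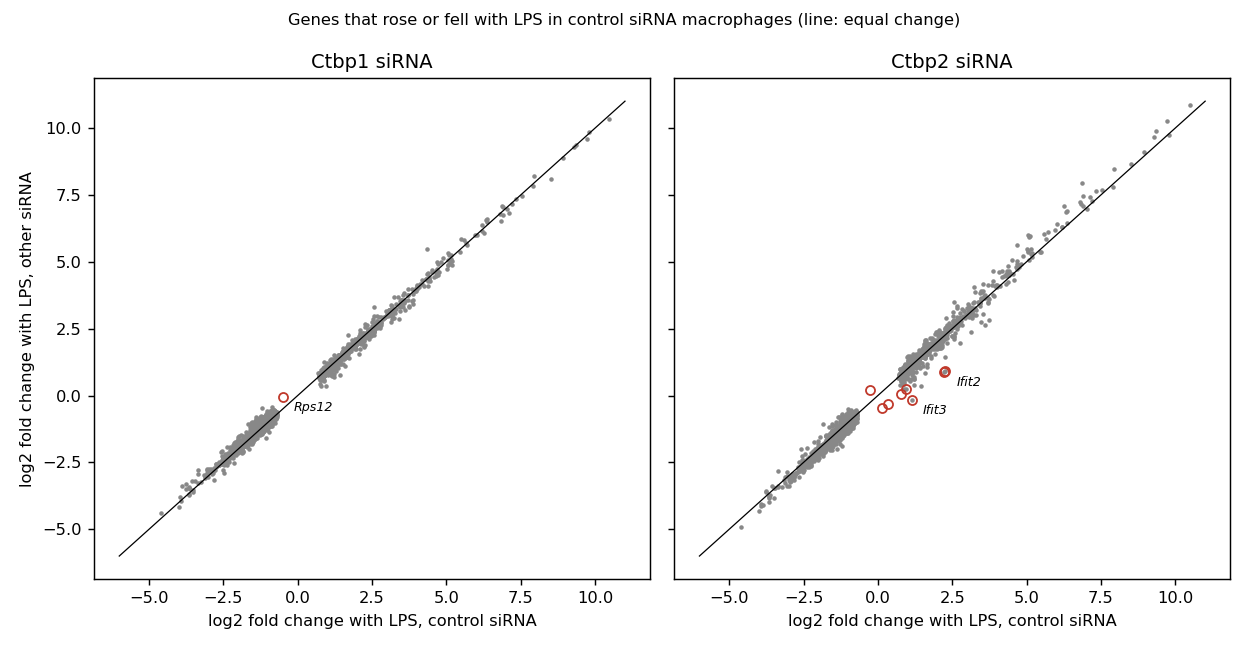
Each grey point is 1 of the 1865 genes that rose or fell in control siRNA cells, with its log2 fold change there on the x axis and in Ctbp1 siRNA (left) or Ctbp2 siRNA (right) cells on the y axis. The line marks equal change, and red circles mark the 1 and 8 genes whose LPS effect differed, including genes without a call in control siRNA cells. Points follow the line in both panels, and Ifit2 and Ifit3 lie below it with Ctbp2 siRNA.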

How the data were processed

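PolyA RNA of 6 control siRNA BMDM samples, and of 12 with other siRNAs as a check, was sequenced by the submitters from unstranded libraries, per the labels' protocols, so overlapping and antisense genes cannot be told apart. The deposited values are gene-level TPM from Salmon on mm39, per the file headers, and the submitters' processing notes name Salmon 1.9.0. TPM keeps no depth, so the depth per sample is unknown. The authors' deposited table also gives a log2 fold change and an adjusted p-value per gene, and the notes name DESeq2 1.44.0.

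TPM columns were matched to samples by name. With limma 3.58.1 in R 4.3.3, log2(TPM + 1) of the 7918 genes averaging 10 TPM or more was fitted with 1 coefficient per group over 18 BMDM libraries, and LPS was tested against vehicle with treat at 1.5-fold (trend, robust), with Benjamini-Hochberg adjustment. Differences in the LPS effect between siRNAs were tested with limma's plain interaction test. The procedure was tested on simulated data.

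The comparison and the gene lists were chosen with earlier results of these data known. The genes named are the 15 largest rises and 25 largest falls among called annotated genes that reach a mean of 50 TPM, and, per list, up to 5 called members in the majority direction, 3 in the other and the 2 most abundant. They also include Ctbp1, Ctbp2 and the 5 largest interactions in each direction. Upstream sequences and gene starts are RefSeq's (GRCm38.p6), joined by symbol, and no coordinates were converted. The other settings tried were 2 scalings, pseudocount 0.1, filters at 1 TPM and none, a 2-fold and a plain test, the 6 libraries alone, a replicate block and each library left out. The J774.1 table was not used, and some results of the named genes and lists are not reported here.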

Additional observations from a re-analysis of the deposited data

Results flagged for a closer look

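The LPS effect differed between Ctbp2 siRNA and control siRNA cells at 8 genes by limma's interaction test (difference of log2 fold changes, Ctbp2 siRNA minus control siRNA). In 7 of them the LPS effect was lower in Ctbp2 siRNA cells, and 5 of those (Ifit2, Ifit3, Irgm1, Xaf1 and Tor3a) are in the list of interferon response genes. That list holds 51 of the 7918 tested genes. Whether the differences lie in the vehicle or the LPS levels was not tested. The genes differed as follows: Ifit2 by −1.37 (adjusted p = 0.0089), Tgtp2 by −1.34 (0.026), Ifit3 by −1.31 (0.033), Irgm1 by −0.69 (0.033) and Xaf1 by −0.69 (0.024). In the same direction Tor3a differed by −0.58 and the predicted gene Gm13464 by −0.65. Egr2, an early growth response factor, differed by 0.48. The difference for Ifit2 and Tor3a was called under both scalings of the libraries and for the other 6 it was not, and Ifit3 shares sequence with Ifit3b. Of 12 other settings, Tor3a was called in 11, Ifit2 in 10, Gm13464 in 7 and Xaf1 in 5. Tgtp2, Ifit3, Irgm1 and Egr2 were called in 4 each. Between Ctbp1 siRNA and control siRNA cells the effect differed at Rps12, a ribosomal protein gene with near-identical copies, by 0.45 (adjusted p = 0.041), and not under either scaling.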

How the results depend on the processing

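Against a 2-fold change 456 genes were higher and 442 lower, and without a fold threshold 1847 were higher and 4206 lower. Scaling the libraries over the tested genes gave 893 higher and 745 lower, and scaling over all detected genes, chosen after seeing the data, gave 1061 and 603. Filters at 1 TPM and none gave 916 and 910 higher, with 1933 and 1774 lower, from more genes tested. Leaving out each library in turn gave 685 to 719 higher and 997 to 1307 lower, the last without LPS replicate 4. For the LPS effect in Ctbp1 siRNA against control siRNA cells, called at 1 gene, both scalings and the 1 TPM filter gave 0 and no filter gave 2. For Ctbp2 siRNA, called at 8 genes, both scalings gave 2, the 1 TPM filter 4 and no filter 0. Leaving out libraries in turn gave 0 to 9 and 1 to 38, with both upper values without control siRNA LPS replicate 4. The cause of these moves was not tested.

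Deviations of same-numbered vehicle and LPS libraries from their group means had correlations of 0.0963, 0.159 and 0.129, and over all same-numbered BMDM pairs −0.15 to 0.324, so the numbers were not taken to pair the samples. Each of the 3 vehicle and 3 LPS libraries correlated best with its own number in the other group. The column names also carry library numbers that run in blocks by replicate number, without saying what the blocks are. Both are hints, and no label states a pairing. With a replicate block 726 genes were higher and 1192 lower, and the interactions were called at 0 (Ctbp1) and 14 genes (Ctbp2).

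Of 393 called genes named by the rule or in the text, 288 were called under every setting, 48 were lost against 2-fold alone, 51, all of them falls, under a scaling and 24 without a library, and none reversed among these 393. The fold settings were not run on the interactions. Depth is unknown for TPM, so no limit from depth can be given.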

Other observations

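In the table without the filter on level, 54 genes averaged under 1 TPM in vehicle and at least 10 TPM with LPS, and 15 went the other way, of which 5 are annotated. Those 5, named for this pattern after their values were seen, include 3 receptors for lipid ligands. Cnr2, the cannabinoid receptor of immune cells, stood at 26.5, 26.3 and 25.7 TPM in vehicle and 0.628, 0.416 and 1.52 TPM with LPS. Lpar5, a lysophosphatidic acid receptor, went from 19.6, 23.4 and 23.3 to 0.528, 0.396 and 1.78 TPM, alongside Lpar6. The ubiquitin ligase gene Rnf144b went from 20.9, 22.8 and 25.2 to 0.788, 0.893 and 1.06 TPM. Lpin1, a phosphatidate phosphatase that was below the filter for testing, went from 11.1, 10.9 and 11.5 to 0.431, 0.380 and 0.783 TPM. In all 5 the LPS values lay below every vehicle value, and LPS replicate 4 was the highest of the LPS libraries for the 4 given here.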
